A study of Saccharomyces cerevisiae with 8 samples.

Results

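The 51 genes described here are budding yeast genes known only by a systematic name whose transcript signal was lower after hydrogen peroxide. They were chosen from 5498 probe sets that each match a single Saccharomyces cerevisiae gene, of which 508 carry a systematic name only. A probe set was taken if the mean log2 signal of the 2 peroxide arrays lay at least 0.8 below that of the 2 control arrays, if both peroxide arrays lay below both control arrays, and if the mean control signal was 100 or more in linear units. The 51 probe sets stand for 51 different genes. Among all 5498 probe sets 831, or 15.1%, met the same thresholds, and 780 of those belong to named genes. Because the peroxide and control arrays chose these genes, their values on those arrays are given as a description without a test, and the test rests on the 4 arrays of carnitine-fed cells, which the choice did not use.

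Transcripts were measured in strain BY4742, a haploid laboratory strain with the markers his3, leu2, lys2 and ura3, in 4 groups of 2 cultures. Every culture was grown to mid-log phase in synthetic complete medium with dextrose. The control received nothing, the carnitine group had L-carnitine in the medium, the peroxide group was given H2O2 at 0.4 mM and harvested 30 min later, and the last group had carnitine followed by the same peroxide exposure. For carnitine the labels disagree, with a dose of 100 mg/L in one place and 1000 mg/L in another, and the one used is not known here. L-carnitine is a small quaternary amine that carries activated acetyl groups between cell compartments, and hydrogen peroxide is an oxidant that yeast meets as a by-product of respiration.

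Signals of LEU2, LYS2 and URA3 lay between 3.87 and 4.09 on all 8 arrays, at the level of probe sets for fission yeast, whose median was 3.84. The genotype label reads MATa, whereas the α-pheromone gene MF(ALPHA)1 read 46478 to 51980 and STE2, a receptor gene of a cells, read 84.3 to 241. Array medians over the 5366 probe sets tested lay between 3056 and 3212. Replicates of the 51 genes differed by a median of 0.15 in control, 0.12 with carnitine, 0.19 with peroxide and 0.19 with both (log2), and by 1 or more in 0, 1, 3 and 3 genes. With 2 arrays a group the number of arrays limits the precision of every value. The p-values rest on the spread between the 2 cultures of each group, combined with a typical spread estimated over all probe sets tested.

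A systematic name gives the place of a reading frame: Y for yeast, a letter for the chromosome, L or R for its arm, a running number, and W or C for the strand. A suffix such as -A marks a frame added after the first numbering. Genes that keep only such a name are mostly those whose product has not been assigned a function. In peroxide, yeast is known to stop dividing for a time, to lower transcripts of ribosome assembly, translation and cell division, and to raise those of antioxidant enzymes and chaperones. Remarks on relatives and product types below are general knowledge of these genes and do not come from the arrays.

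Without carnitine, the peroxide minus control differences of the 51 genes ran from -6.81 to -0.80 on the log2 scale, with a median of -1.43. Of the 51, 45 were at least 2-fold lower and 10 at least 4-fold lower. Control signals spanned 101.8 to 28172 with a median of 1837. They lay under 300 for 6 genes, from 300 to 1000 for 12, and above 1000 for 31 more, with YKR075C and YOR342C brighter still. No array of any of the 51 read at or below the detection floor of 4.14, the 95th percentile of the fission yeast probe sets. In RNA from a whole culture, fewer cells that express a gene and less RNA per cell cannot be told apart.

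**Figure D1:**
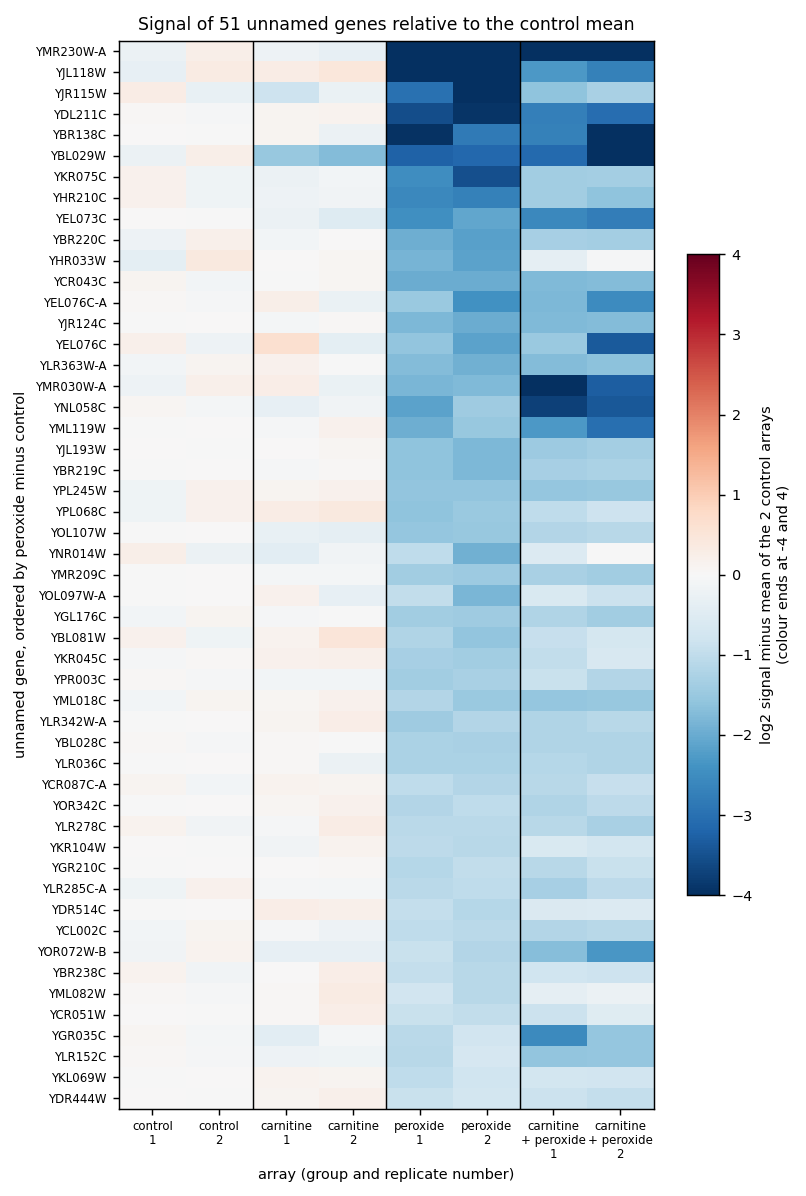
Log2 signal of the 51 genes (rows, ordered by peroxide minus control) on the 8 arrays (columns), relative to the mean of the 2 control arrays. The peroxide columns are below 0 by selection and run down to -6.81 in the mean for YMR230W-A, beyond the end of the colour scale at -4, while the carnitine with peroxide columns were not used to choose the genes.

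YMR230W-A had the largest difference of the 51. Its signals were 789 and 1095 in control, 805 and 743 with carnitine, 9.01 and 7.59 with peroxide, and 6.47 and 7.02 with both. The groups with peroxide lay close to the floor and far below the groups without it, whether or not carnitine was present. YJL118W read 115 and 178 in control, 175 and 198 with carnitine, 8.24 and 6.24 with peroxide, and 29.4 and 22.2 with both. Its peroxide arrays were the lowest, and the arrays with both treatments lay between them and the arrays without peroxide.

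YDL211C fell from 872 and 903 with carnitine to 121 and 98.4 with carnitine and peroxide, and it read 842 and 793 in control and 69.5 and 53.5 with peroxide alone. YBR138C read 794 and 770.0 in control, 851 and 665 with carnitine, 51 and 109 with peroxide, and 119 and 46.6 with both. The replicates of each peroxide group differed by over 2-fold for YBR138C, and the groups with and without peroxide did not overlap. YKR075C had the highest control signal of the 51 and is a paralog of YOR062C. It read 31223 and 25120.2 in control, 23709 and 26192 with carnitine, 5048 and 2459 with peroxide, and 10619 and 10865 with both.

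YEL073C stood at 1844 and 1829 in control, 1548 and 1276 with carnitine, 334 and 439 with peroxide, and 308 and 270 with both. Both of its groups with peroxide were low to a like degree, at differences of -2.26 without and -2.29 with carnitine. For YHR210C, which resembles aldose epimerases, control signals were 406 and 326, carnitine signals 314 and 328, peroxide signals 61.5 and 55.7, and signals with both treatments 137 and 119.

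In carnitine-fed cells, 49 of the 51 genes fell with peroxide and none rose, at limma adjusted p between 8.25e-06 and 0.0286 for those that passed. The test was limma on the 2 carnitine and the 2 carnitine with peroxide arrays, with Benjamini-Hochberg adjustment over all 5366 probe sets and a threshold of 0.05. Over all of these, 38.8% fell and 35.1% rose in the same test. Scaled to hybridisation spikes, 847 of all 5366 probe sets tested fell, among 3264 that passed in either direction, and 44 of the 51 fell. The median difference of the 51 genes was -1.27, beside -0.02 over all probe sets tested. On the single arrays, 50 of the 51 genes had both carnitine with peroxide signals below both carnitine signals, which held for 45.8% of all probe sets tested. At least 2-fold lower means were found for 39 of the 51 and at least 4-fold lower means for 11. The same 49 had an unadjusted p below 0.05.

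Of the 780 named probe sets, 758 fell in carnitine-fed cells (97.2%, limma) and 0 rose, against 96.1% of the unnamed genes, and their median difference was -1.17. The 394 other tested probe sets with a systematic name only had a median of 0.10, with 68 that fell and 168 that rose. The unnamed genes had lower control signals than the named ones, with medians of 1837 and 4064. The plot of differences by set of genes shows these distributions.

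**Figure D2:**
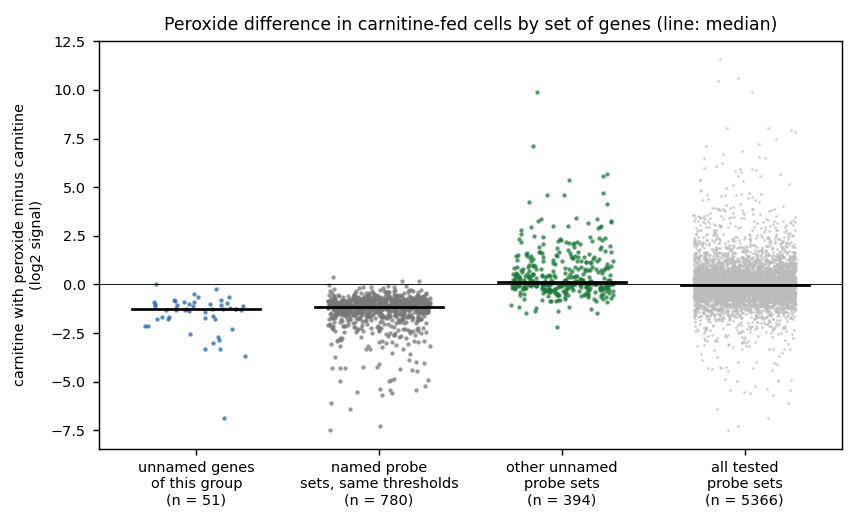
Carnitine with peroxide minus carnitine (log2 signal) for each probe set, by set, with the median as a line. The 51 unnamed genes have a median of -1.27 and the 780 named probe sets under the same thresholds one of -1.17, while the 394 other unnamed probe sets centre at 0.10.

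YMR230W-A fell by 6.84 ± 0.10 in carnitine-fed cells (log2 difference ± SE, limma adjusted p = 8.25e-06), the largest fall of the 51 in these arrays. YMR030W-A fell by 3.66 ± 0.30 (adjusted p = 0.000324), YBR138C fell by 3.34 ± 0.46 (adjusted p = 0.00188) and YNL058C fell by 3.33 ± 0.15 (adjusted p = 6.4e-05). YDL211C fell by 3.02 ± 0.14 and YJL118W fell by 2.86 ± 0.17. YML119W fell by 2.71 ± 0.26, from 965 and 1121 with carnitine to 204 and 123 with both treatments. YEL073C fell by 2.29 ± 0.15 (adjusted p = 0.000146). Among the 51 the SE was largest for YEL076C, at 0.69.

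The size of the difference was much alike with and without carnitine for 27 of the 51 genes, where the 2 differences lay within 0.3 of each other on the log2 scale. Being close to a difference that the choice had fixed as low, these 27 had to be low in carnitine-fed cells too, so their range of -6.84 to -0.80 there is a description only. YCR043C, with control signals of 9614 and 8206, had differences of -1.99 without and -1.78 ± 0.062 with carnitine. YBL028C read 8244 and 7807 in control, 8294 and 7992 with carnitine, 3351 and 3293 with peroxide, and 3503 and 3449 with both, so that its 4 arrays with peroxide lay within a narrow range. YOR342C read 12430 and 12687 in control, 13244 and 14280 with carnitine, 5605 and 6222 with peroxide, and 5462 and 6067 with both. YKL069W, whose product reduces free methionine-R-sulfoxide, an oxidised form of methionine, read 7286 and 7446 in control and 3640 and 4285 with peroxide. Its signals were 8090 and 7946 with carnitine and 4395 and 4334 with both treatments, and it fell by 0.88 ± 0.053 (limma adjusted p = 0.000121). YCL002C fell by 1.02 ± 0.074 in carnitine-fed cells and differed by -1.05 without carnitine.

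The 2 genes that did not pass in carnitine-fed cells were YHR033W and YNR014W. YHR033W, a relative of PRO1, the gene for the first enzyme of proline synthesis, read 554 and 938 in control, 723 and 755 with carnitine, 200.4 and 164 with peroxide, and 556 and 691 with both. Only its peroxide arrays without carnitine were low. The carnitine-fed difference was -0.25 ± 0.14 (limma adjusted p = 0.162), beside -1.99 without carnitine. YNR014W read 2841 and 2086 in control, 1807 and 2212 with carnitine, 1202 and 640.0 with peroxide, and 1667 and 2425 with both. Its carnitine-fed groups overlapped, with a difference of 0.01 ± 0.21 (limma adjusted p = 0.976), beside -1.47 without carnitine. Without carnitine replicate 1 that difference was -0.14, and without carnitine with peroxide replicate 2 it was -0.26, and neither passed.

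Across the 51 genes the 2 differences had a Pearson's r of 0.73 and a Spearman's rho of 0.52, over 4 arrays each and no array in common. For 9 genes they lay more than 1 apart on the log2 scale, which is 17.6% of the 51, beside 7.44% of the 780 named probe sets, 26 of the 394 other unnamed probe sets and 3.80% of all probe sets tested. Selection on the control and peroxide arrays favours large differences on those arrays, so the gap was not tested. In 7 of the 9 the difference was smaller with carnitine and in 2 it was larger. In 6 of the 9 the second peroxide array was lower than the first. The same order held in most of the 51, so it does not set the 9 apart. Its share over all probe sets tested was not computed.

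**Figure D3:**
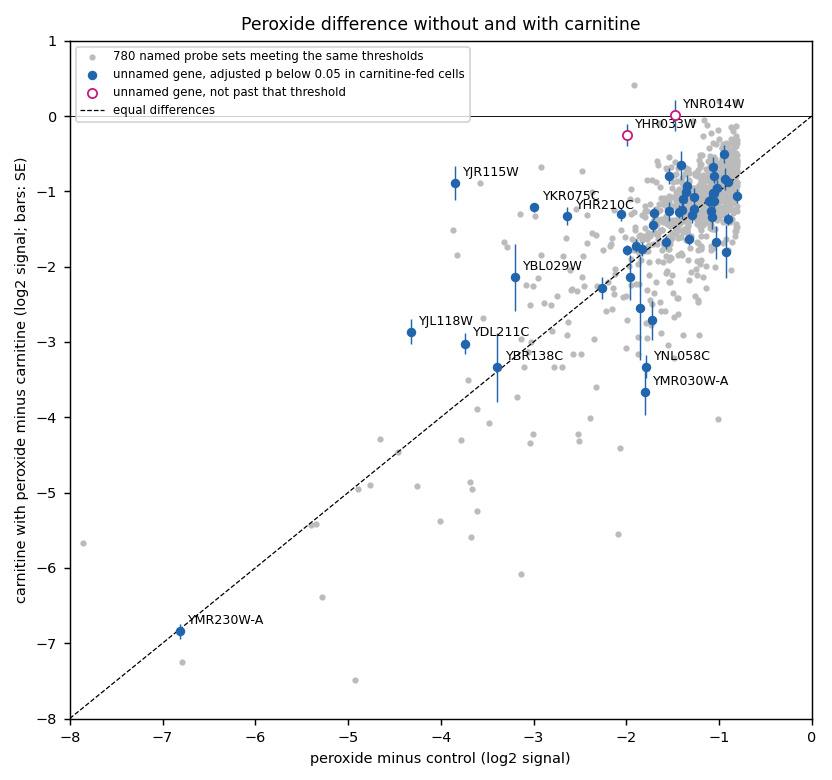
Peroxide minus control (x axis, log2 signal) against carnitine with peroxide minus carnitine (y axis, log2 signal, bars are SE) for the 51 unnamed genes and for 780 named probe sets under the same thresholds. Points above the dashed line of equal differences, such as YJR115W at -3.85 and -0.89, had the smaller difference in carnitine-fed cells, and YMR030W-A and YNL058C lie below it.

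The widest gap was that of YJR115W, a paralog of ECM13, at 2.96. It read 1681 and 1125 in control, 770.1 and 1139 with carnitine, 174 and 52.6 with peroxide, and 455 and 559.9 with both. The arrays with both treatments lay above both peroxide arrays and below all others. In carnitine-fed cells it fell by 0.89 ± 0.23 (limma adjusted p = 0.0174), beside a difference of -3.85 without carnitine, which is -2.98 without peroxide replicate 2 and -4.71 without peroxide replicate 1. That fall did not pass when all 8 arrays shared 1 fit (limma adjusted p = 0.148) or without carnitine with peroxide replicate 1 (limma adjusted p = 0.0790).

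YKR075C had a gap of 1.78, as it fell by 1.21 ± 0.062 in carnitine-fed cells (limma adjusted p = 8.01e-05) and had a difference of -2.99 without carnitine. The latter was -2.47 without peroxide replicate 2 and -3.51 without peroxide replicate 1. YJL118W had a gap of 1.45 and YHR210C one of 1.31, and in carnitine-fed cells YHR210C fell by 1.33 ± 0.12. The peroxide signals of YJL118W, 8.24 and 6.24, lay close to the floor of 4.14, so the size of its gap is uncertain. With an offset of 50 added to the signals, the carnitine-fed difference of YJL118W was -1.64 instead of -2.86. Its gap under that offset was not computed. In YJR115W, YKR075C, YHR210C, YHR033W, YNR014W and YJL118W, both arrays with carnitine and peroxide lay above both arrays with peroxide alone.

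YBL029W differed from these in that carnitine alone already went with a lower signal. It read 123 and 169.9 in control, 49.97 and 43.0 with carnitine, 15.2 and 16.2 with peroxide, and 16.8 and 6.57 with both. The gap of 1.06 comes with a carnitine minus control difference of -1.64, and the groups with peroxide overlapped. In carnitine-fed cells it fell by 2.14 ± 0.44 (limma adjusted p = 0.0084).

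YMR030W-A and YNL058C had the larger difference in carnitine-fed cells. YMR030W-A read 142 and 188 in control, 197 and 135 with carnitine, 46.0 and 48.0 with peroxide, and 9.99 and 16.6 with both. YNL058C, a paralog of the pheromone-regulated gene PRM5, read 2179 and 1969 in control, 1666 and 1867 with carnitine, 469 and 769 with peroxide, and 157 and 197 with both. In both genes the arrays with carnitine and peroxide were the lowest of the 8. Those of YMR030W-A lay close to the floor of 4.14, so the size of its gap is uncertain. With an offset of 50 added to the signals, its carnitine-fed difference was -1.76 instead of -3.66. Its gap under that offset was not computed. YML119W and YGR035C came next among genes with the larger difference in carnitine-fed cells, with gaps of -0.99 and -0.88. YGR035C read 3303 and 2960.4 in control, 2318 and 2993 with carnitine, 1467 and 1855 with peroxide, and 537 and 1066 with both.

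**Figure D4:**
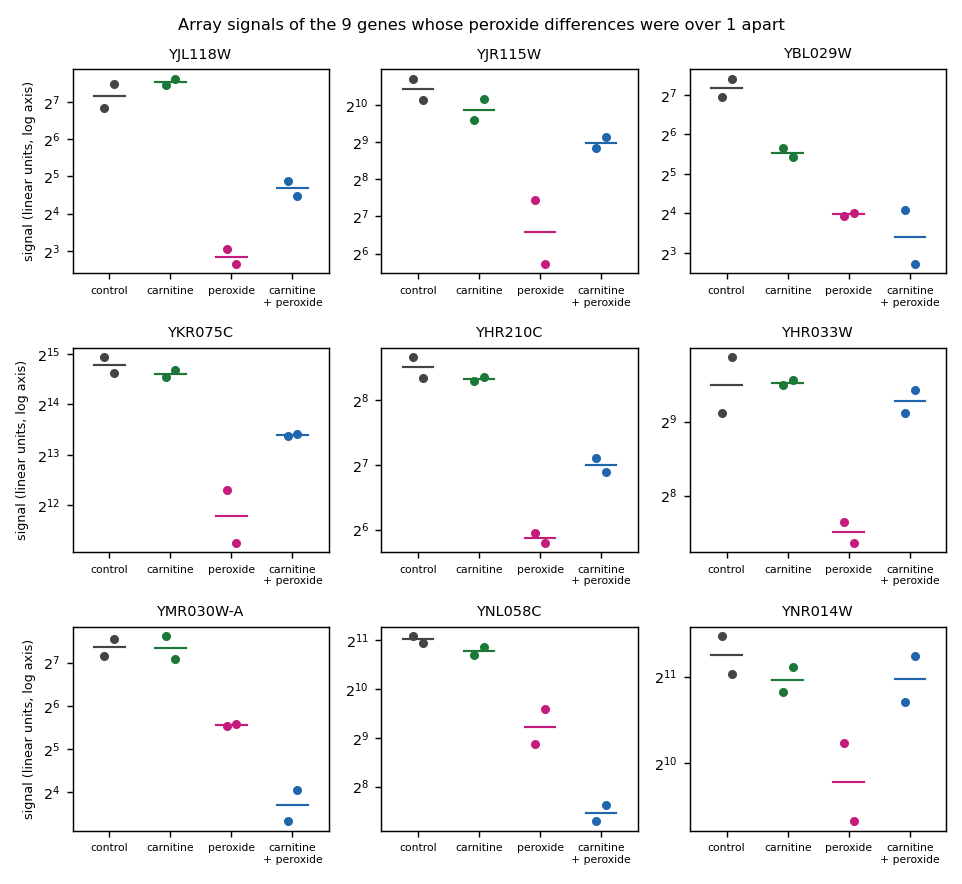
Signal (linear units on a log axis) on each of the 8 arrays for the 9 genes whose peroxide differences with and without carnitine lay more than 1 apart on the log2 scale, with points for arrays and a line for the mean of the log2 values. In YHR033W only the peroxide group without carnitine is low, at 200.4 and 164, whereas in YMR030W-A the group with both treatments is the lowest, at 9.99 and 16.6.

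Carnitine without peroxide moved the 51 genes little as a set, and the control arrays used for the choice enter this comparison, so it carries no test. The median carnitine minus control difference was 0.00, with a range from -1.64 for YBL029W to 0.38 for YJL118W. Both carnitine arrays lay above both control arrays for 11 genes and below them for 8, or 21.6% and 15.7%, where 23.3% and 22.5% of all probe sets did so. The 780 named probe sets under the same thresholds were less like the 51 here, with 44.5% above and 10.5% below. After YBL029W the lowest values were -0.55 for YJR115W, -0.39 for YEL073C and -0.33 for YOR072W-B. The highest after YJL118W were 0.34 for YPL068C, 0.30 for YBL081W and 0.23 for YDR514C. YPL068C read 424 and 536 in control against 581 and 625 with carnitine, while the arrays of YBL081W overlapped.

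With peroxide present, the carnitine with peroxide minus peroxide differences ran from -1.87 for YMR030W-A to 2.40 for YJR115W, with a median of 0.14. Both arrays with carnitine lay above both peroxide arrays for 29 genes and below them for 11. The shares over all probe sets were 37.3% and 36.1%. Scaled to the poly-A spikes, which shifted all probe sets by 0.66 in this comparison, the median of the 51 was 0.80 instead of 0.14. The choice used the peroxide arrays, so these counts carry no test. Of the 780 named probe sets under the same thresholds 53.1% were higher and 21.2% lower, beside 56.9% and 21.6% of the 51. The highest values after YJR115W were 1.83 for YJL118W, 1.77 for YHR033W and 1.61 for YKR075C. The lowest after YMR030W-A were -1.77 for YNL058C, -1.12 for YGR035C and -0.98 for YOR072W-B.

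Some of the 51 were grouped by relatives, from general knowledge and after the values were seen, and the groups are not complete lists. In carnitine-fed cells 96.1% of the 51 and 38.8% of all probe sets fell. Counts that fell in the groups below therefore do not set a group apart from the rest of the 51. Of the genes so grouped, 6 were taken to resemble membrane transporters. They are YBR220C, YJL193W, YJR124C, YLR152C, YML018C and YPR003C, the last of the sulfate transporter family. All 6 fell in carnitine-fed cells, with differences from -1.72 to -0.93. YJR124C had the largest of these falls. It read 2962 and 3068 in control, 2873 and 3083 with carnitine, 864 and 763 with peroxide, and 889 and 915 with both, so the 4 arrays with peroxide were all below the 4 without. YPR003C, at the other end, read 662 and 624 in control, 596 and 597 with carnitine, 245 and 261 with peroxide, and 346 and 285 with both.

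Among the 4 genes grouped here as resembling enzymes, YHR210C, YKL069W and YML082W fell in carnitine-fed cells and YHR033W did not pass. YML082W, a relative of cystathionine gamma-synthase, read 3106 and 3769 with carnitine and 2313 and 2535 with both treatments, and it fell by 0.50 ± 0.12 (limma adjusted p = 0.0142). That fall did not pass without carnitine with peroxide replicate 1 (limma adjusted p = 0.0706). A further 6 genes were grouped by relatives of other kinds, and all 6 fell, with differences from -3.33 to -0.84. They are YJR115W, YKR075C and YNL058C, given above, YBR238C, a paralog of the mitochondrial RMD9, YCR051W, which holds ankyrin repeats, and YLR278C, of the zinc-cluster family of transcription factors. YLR278C read 874 and 719 in control, 773 and 981 with carnitine, 375 and 379 with peroxide, and 368 and 323 with both.

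The 8 suffixed frames outside the chromosome ends, YCR087C-A, YLR285C-A and YLR342W-A among them, all fell in carnitine-fed cells, beside 96.1% of the 51. Their differences ran from -6.84 for YMR230W-A to -0.66 for YOL097W-A. YLR363W-A had the highest control signals of these, at 6886 and 7992, and read 2234 and 1937 with peroxide. YOL097W-A, with the lowest control signals of all 51 at 100.4 and 103, fell by 0.66 ± 0.19 (limma adjusted p = 0.0286). Its fall did not pass without carnitine replicate 1 (limma adjusted p = 0.0797), without carnitine with peroxide replicate 2 (limma adjusted p = 0.107) or with all 8 arrays in 1 fit (limma adjusted p = 0.0600). Suffixed names made up 17.6% of the 51 genes and 29.1% of the 508 probe sets with a systematic name only. The 51 had to reach a control signal of 100, whereas the 508 had no signal limit and 445 of them were tested. The 2 shares therefore do not compare like with like.

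The remaining 25 genes, among them YGL176C, YGR210C, YKR045C, YLR036C, YMR209C and YPL245W, are described here by their values alone. Some of these may have relatives that were not considered. In carnitine-fed cells 24 of the 25 fell, beside 96.1% of the 51. Their differences ran from -3.34 for YBR138C to 0.01 for YNR014W, with a median of -1.26. The smallest falls that passed among them were those of YKR104W, which fell by 0.67 ± 0.13, and of YOL107W and YDR514C, which both fell by 0.80. YKR104W, which RefSeq also lists under the synonym NFT1, read 140.3 and 139.7 in control, 128 and 153 with carnitine, 68.0 and 65.5 with peroxide, and 91.4 and 84.4 with both. The adjacent frame YKR103W, on the same strand, is itself listed as NFT1 and was lower with peroxide alone than in control. In carnitine-fed cells YKR103W did not pass, at 0.03 ± 0.20 (limma adjusted p = 0.907), beside -0.67 for YKR104W. Whether these frames share a transcript was not tested.

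Several of the 51 genes lie at shared loci, so their probe sets may not be independent readings. By the RefSeq gene table (assembly R64, used for gene order only), 5 genes overlap another gene and 6 lie next to another of the 51. YBR219C and YBR220C overlap on the same strand. YBR219C read 3947 and 4119 in control, 3939.6 and 4127 with carnitine, 1329 and 1152 with peroxide, and 1620.4 and 1683 with both. YBR220C fell by 1.30 ± 0.086 and YBR219C fell by 1.29 ± 0.075 in carnitine-fed cells, a difference within 1 SE. Without carnitine they were less alike, at -2.06 for YBR220C and -1.70 for YBR219C.

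YEL076C-A and YEL076C overlap as well and belong to a repeat found at many chromosome ends, so signal from other copies cannot be told apart. YEL076C-A read 418 and 397 in control, 481 and 343 with carnitine, 146 and 75.4 with peroxide, and 118 and 71.5 with both. YEL076C read 164 and 124 in control, 224 and 108 with carnitine, 48.0 and 32.3 with peroxide, and 50.9 and 13.9 with both, and it fell by 2.55 ± 0.69, which did not pass without carnitine replicate 1 (limma adjusted p = 0.0882). Probe sets of YBR219C, YEL076C, YEL076C-A and YOR072W-B are of a type that can match more than 1 transcript, and of the other 47 genes 45 fell in carnitine-fed cells. YBL029W and YBL028C are neighbours on opposite strands that point towards each other, with differences of -2.14 and -1.23.

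YMR030W-A follows HOF1, a gene for a protein of the cytokinesis ring, on the same strand. HOF1, also 1 of the G2 and M phase genes listed later, differed by -2.09 without carnitine and fell by 5.54 ± 0.20 with carnitine (limma adjusted p = 3.64e-05), and YMR030W-A had -1.80 and -3.66. YOR072W-B overlaps a tRNA gene and precedes SGO1, for a protein that guards chromosome cohesion, on the same strand. SGO1 had differences of -3.71 without and -3.51 with carnitine, and YOR072W-B had -1.03 and -1.68. YMR230W-A follows RPS10B, for a ribosomal protein, with differences of -0.70 and -1.40 for RPS10B against -6.81 and -6.84 for YMR230W-A. Whether the neighbours' transcripts reach these probes was not tested.

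Other neighbours moved the opposite way. YKR075C lies head to head with ECM4, for a glutathione transferase, which rose by 4.88 ± 0.11 in carnitine-fed cells (limma adjusted p = 1.49e-05). Next to YKL069W on the same strand is YKL070W, which rose by 5.55 ± 0.14 (limma adjusted p = 1.74e-05). NGL3 beside YML119W rose by 3.26 ± 0.099, and CRG1 beside YHR210C rose by 2.41 ± 0.13. Of 75 tested genes adjacent to the 51 and not among them, 31 fell, 21 rose and 23 did not pass, a share of 41.3% that fell, close to the 38.8% over all probe sets.

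Lists of named genes in functions that peroxide is known to lower were set beside the 51 in carnitine-fed cells. The lists were chosen with earlier results of these data known, so their counts are a description only. Over all probe sets tested, 38.8% fell. All 30 ribosome assembly genes fell, with a median of -1.08, and 19 of 20 genes of RNA polymerases I and III fell, with a median of -1.12. Of 23 RNA modification genes 22 fell and 0 rose, with a median of -0.94. Of 20 genes of G1 and S phase 14 fell and 2 rose, with a median of -1.01. All 19 tested genes of G2 and M phase fell, with a median of -3.13, beside a median of -2.09 without carnitine. The 51 unnamed genes had medians of -1.27 with and -1.43 without carnitine. In the ribosome assembly list no gene had the 2 differences more than 1 apart, and in the G2 and M phase list 6 did.

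Near the thresholds of the choice, YDR444W at -0.80, YKL069W at -0.90 and YLR152C at -0.90 were the last genes inside the limit on the peroxide difference. YLR419W at -0.80, YGL007C-A at -0.78 and YLR177W at -0.77 lay just outside it. On the side of the control signal, YOL097W-A at 101.8, YKR104W at 140 and YEL076C at 144 were inside, and YKR005C at 52.3, YOL155W-A at 39.96 and YBR184W at 30.2 met the other thresholds but were too dim. In all, 7 probe sets with a systematic name only were left out for a low control signal alone.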

How the data were processed

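Affymetrix arrays were read out as linear intensity, with 1 deposited signal for each probe set on each array. The submitters' processing notes name GCOS, and how signals were summarised, background-corrected and scaled is not stated in the labels. Of 10928 probe sets, 5498 match 1 S. cerevisiae gene in the platform table, 1746 match fission yeast, 1 matches several genes and 3683 list none. Probe sets with a mean log2 signal above 2.05 (95th percentile of the fission yeast probe sets) were tested, 5366 in all, which kept all 51 members and dropped 132. Signals were used as deposited, and the array medians spanned 5.12%.

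The fit used log2 signals of the 4 carnitine-fed arrays in limma 3.58.1 (R 4.3.3, lmFit and eBayes with a trend), with 2 residual and 2.91 prior degrees of freedom. Sample titles call the arrays biological replicates. The fit was tested on simulated data. Figures were drawn with matplotlib 3.10.9.

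Members, gene lists and naming rules were chosen with earlier results of these data known, and the groups by relatives after seeing the values. Named were the 10 largest peroxide differences, the 10 most and 5 least negative carnitine-fed ones, the 4 highest and 4 lowest of each carnitine comparison, the 5 highest control signals, up to 6 overlapping genes, those not passing and the 3 on each side of each threshold. Other genes were named after their values were seen, as examples of a group by relatives, locus or steadiness. Alternatives covered scaling, filters, variance model, offset, arrays in the fit, replicate number, thresholds, probe sets and single arrays. Promoter and protein sequences were not analysed here.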

Additional observations from a re-analysis of the deposited data

How the results depend on the processing

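The number of genes that fell in carnitine-fed cells stayed between 44 and 49 of 51 under each normalization, spike scaling, variance model, offset, choice of arrays and probe sets tried, and between 47 and 49 with 1 array left out. With the filter at the 40th percentile 13 of the 51 were tested and 13 fell, fewer because fewer probe sets were tested. Relative to the poly-A and the hybridisation control spikes, in this order, the shift of all probe sets was -0.55 and 0.50 for peroxide minus control, 0.02 and 0.39 for carnitine with peroxide minus carnitine, 0.09 and 0.15 for carnitine minus control, and 0.66 and 0.05 for carnitine with peroxide minus peroxide. With hybridisation scaling the carnitine-fed median was -0.87, the thresholds found 31 genes and the carnitine minus control median was 0.15. With poly-A scaling the thresholds found 113 genes and the carnitine with peroxide minus peroxide median was 0.80. These moves follow the spike shifts by construction. Leaving out 1 control or peroxide array, the thresholds found 51 to 55 genes, 47 to 51 of them shared with the 51. The carnitine-fed median lay between -1.31 and -1.24 with 1 array left out.

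The sign of the YNR014W difference turned to -0.018 with quantile normalization and -0.052 with median centring, and with 1 array left out the difference lay between -0.26 and 0.28. The sign of YHR033W turned to 0.14 with hybridisation scaling. Among the 33 genes followed singly, YKR104W, YDR514C, YOL097W-A and YML082W no longer passed under that scaling (limma adjusted p of 0.274, 0.0661, 0.305 and 0.658). Losses among the other genes of the 51 are not listed. Hybridisation scaling and median centring move all probe sets alike in a comparison, by 0.39 here for hybridisation scaling, so those turns follow by construction. The cause of the turn with quantile normalization was not tested. Neither YNR014W nor YHR033W passed in these settings. Of 503 results of single genes under an alternative, 486 kept side and sign, 12 no longer passed and 5 turned sign. Side and sign do not show size, which moved for genes with low signals. With an offset of 50 added to the signals, the carnitine-fed difference was -3.86 instead of -6.84 for YMR230W-A and -1.76 instead of -3.66 for YMR030W-A. It was -1.64 instead of -2.86 for YJL118W and -0.65 instead of -2.14 for YBL029W. The median of the 51 was -1.22 with that offset. With replicate number as a block the number that fell was 49 in the fit of 4 arrays and 48 in that of 8, and the fit of 8 arrays lost the call of YJR115W among named genes with the block (limma adjusted p = 0.146) and without it. The correlation of deviations between same-numbered arrays was 0.13 for carnitine and carnitine with peroxide and -0.11 for control and carnitine, and the labels do not say that a number marks a shared day.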
